A study of Mus musculus with 6 samples.

Results

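The microRNAs described here are the miR-297, miR-466, miR-467 and miR-669 families, most of whose genes lie together in an intron of Sfmbt2. Every entry of the deposited miRNA lists whose name begins with mmu-miR- and the number of one of these families, with any suffix, was taken, which gave 43 of the 1189 entries. Small RNA was sequenced from the prefrontal cortex of 6 male wild type C57BL/6 mice aged 18 months, although the sample titles carry 17. The 3 mice of the postoperative neurocognitive disorder (PND) group were kept in 1.5% isoflurane for 30 minutes and then had an exploratory laparotomy of 30 minutes under isoflurane, with lidocaine cream and povidone iodine on the wound, whereas the 3 mice of the control (CON) group had neither anesthesia nor operation. According to the paper, both groups had open field, fear conditioning and Barnes maze tests, and tissue was taken after the last maze test. At harvest the mice of both groups were deeply anesthetized with isoflurane and perfused with saline. The anesthesia for the operation, the surgery and the wound care thus came together in the PND group and cannot be told apart. In bulk tissue, fewer cells of a type and less RNA per cell cannot be told apart either.

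A microRNA is a short RNA cut from a hairpin precursor. The hairpin has a 5p and a 3p arm, and the arm that is loaded into an Argonaute protein guides it to partly complementary messenger RNAs, mainly through the seed, bases 2 to 8. Sfmbt2 encodes a Polycomb group protein and is expressed from the paternal allele in early mouse embryos and extraembryonic tissue. Its intron holds a large rodent-specific microRNA cluster that arose by repeated duplication, is known from embryonic stem cells and the placenta, and is needed for normal placental growth. Because of the duplications, several names have many gene copies with the same mature sequence, and neighbouring names can differ by few or no bases.

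In the GENCODE M21 annotation (build GRCm38), which was used for gene positions because the deposited lists hold no coordinates, 81 hairpin genes carried a name of these families and 71 of them lay inside Sfmbt2 (chromosome 2, 10370510 to 10595253, plus strand). These 71 hairpins spanned 10466663 to 10518279, a stretch of 51617 bp. All 71 were on the strand of Sfmbt2 and inside 1 intron of its coding transcripts, of 62472 bp (10461473 to 10523944). Of them 0 touched an exon of a coding transcript, and exons of other Sfmbt2 transcripts were not checked. The miR-669 family had 29 hairpins there, miR-466 had 23, miR-467 had 14 and miR-297 had 5. The repeat was visible in their order: 13 of the 14 miR-467 hairpins were followed next by a miR-466 hairpin, and 11 of the 14 by a miR-466 and then a miR-669 hairpin. Successive miR-467 hairpins were a median of 2.45 kb apart (1.91 to 4.88 kb). In the lists, 21 entries were 5p arms, 21 were 3p arms and miR-466q had no arm in its name. Of the 43 entries, miR-466q and miR-466i-3p were those with a hairpin gene only outside Sfmbt2.

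**Figure D1:**
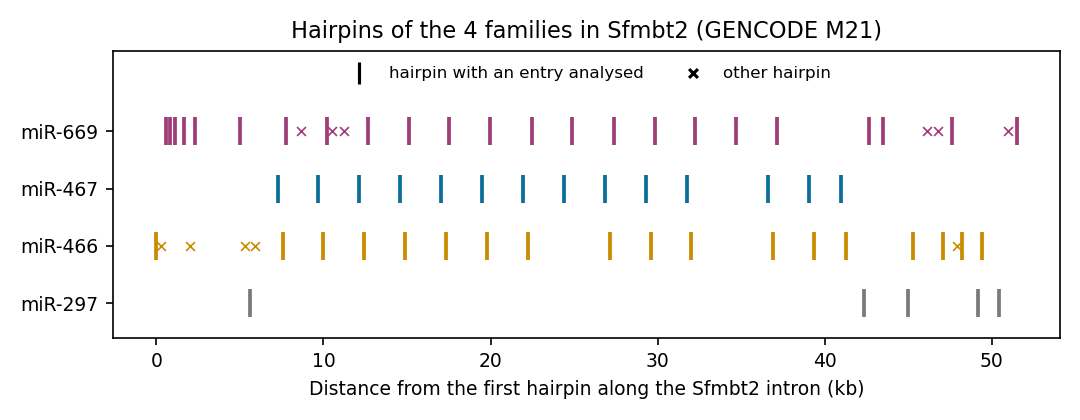
Hairpins of the 4 families inside the Sfmbt2 intron, 1 row per family, plotted by distance in kb from the first hairpin; bars mark hairpins with an entry analysed and crosses the other hairpins. The 14 miR-467 hairpins alternate with miR-466 and miR-669 hairpins, while 4 of the 5 miR-297 hairpins sit near the far end.

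Mature sequences were taken from RefSeq (GRCm38.p6), which held 997 of the 1189 entries but 2 of the 43 entries of these families. Both are printed 5′ to 3′ with the seed in capitals, because they show the CA repeat that these miR-466 names carry.
miR-466i-3p (chr13:17747552-17747573, plus strand): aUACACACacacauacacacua
miR-466q (chr3:28419988-28420007, plus strand): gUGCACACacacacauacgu
The 2 seeds differed. Both sequences held the motif ACACACAC, searched on the mature strand only, and these were 2 of the 997 entries with a sequence (0.201%). Most entries of these families are missing from the 997, so this share does not show how rare the motif is. Both hairpins lie outside Sfmbt2, so the 2 sequences do not stand for the cluster in its intron. No value below tests what either RNA binds.

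Together the 43 entries were a minor part of the reads on the listed miRNA entries. They had 7198 reads over the 6 libraries, between 0.00403% and 0.00862% of the reads on all listed entries of a library. Their summed level was 77.96, 77.3 and 86.2 reads per 1000000 (CPM) in the PND mice and 71.0, 40.3 and 68.9 CPM in the CON mice. All 3 PND mice were thus above all 3 CON mice, with CON mouse 2 far below the rest. The group means were 80.5 ± 4.92 and 60.1 ± 17.1 CPM (SD, n = 3 each), a ratio of 1.34, which became 1.15 without CON mouse 2. This sum is a description of a chosen list and was not tested.

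**Figure D2:**
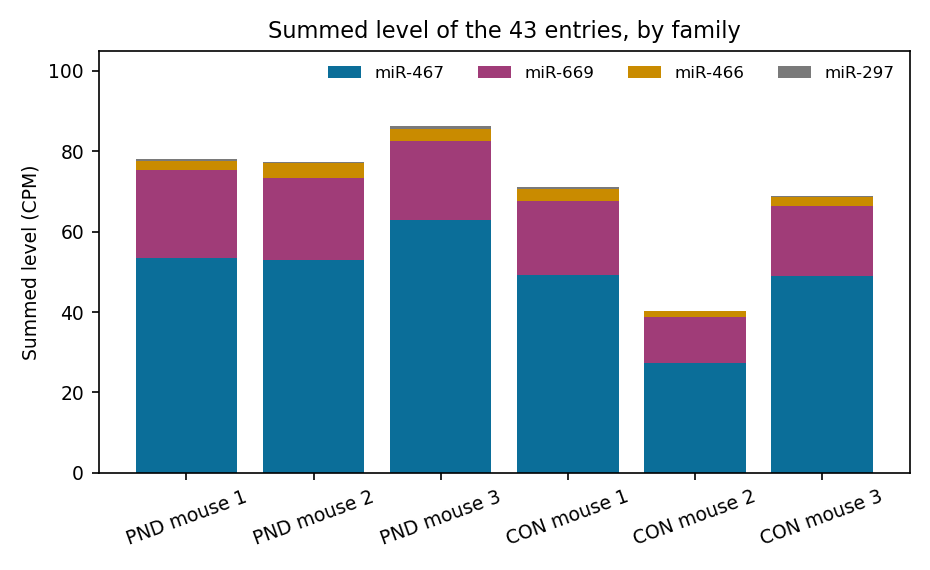
Summed level in CPM of the 43 entries in each library, split by family. The PND bars reach 77.3 to 86.2 CPM and the CON bars 40.3 to 71.0 CPM, and miR-467 makes up most of every bar.

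The level was very unequal between families. The miR-467 family held 69.9% of the reads on the 43 entries, miR-669 held 25.9%, miR-466 held 3.70% and miR-297 held 0.514%, although miR-466 has the most entries (16, against 15, 8 and 4 for miR-669, miR-467 and miR-297). The mean level of the miR-467 family was 56.4 ± 5.70 CPM in PND and 41.8 ± 12.5 CPM in CON, and that of miR-669 was 20.7 ± 1.17 and 15.7 ± 3.86 CPM (SD, n = 3 each). In both families the groups did not overlap. The miR-466 sum was 2.96 ± 0.635 CPM in PND and 2.26 ± 0.803 CPM in CON, and the miR-297 sum 0.423 ± 0.172 and 0.303 ± 0.136 CPM, with overlapping groups in both.

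Most entries were at the edge of detection. Of the 43 entries, 2 had a mean of at least 10 CPM, 6 of at least 1 CPM and 23 were under 0.2 CPM. A level of 3 reads, taken as the floor, was worth 0.154 to 0.202 CPM depending on the library. In every library 16 entries had at most 3 reads, while 13 had more than 3 reads in all 6. At least 1 read was present in all 6 libraries for 25 entries. For the entries at the floor a difference between groups was not detectable at this depth.

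The most abundant entry was miR-467a-5p, whose family has been studied in angiogenesis. It was at 45.6, 46.2 and 55.2 CPM in PND (888, 813 and 977 reads) and at 40.5, 22.8 and 40.3 CPM in CON (619, 339 and 649 reads). The groups did not overlap, and CON mouse 2 was the lowest. With a mean of 41.8 CPM it ranked 247th of the 1189 entries and took 56.6% to 64.0% of the reads of the 43 entries in each library. Its log2 fold change (PND against CON, of CPM + 1) was 0.53 (SE 0.23), limma p = 0.052, adjusted p = 0.77, and the exact two-sided permutation test over the 6 mice gave p = 0.1, the smallest this design allows. Leaving out CON mouse 2 lowered it to 0.27. The name has 10 hairpin genes in the annotation, so its level is the sum over up to 10 loci.

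The next entry, miR-669c-5p, has 1 hairpin gene. It was at 14.1, 11.8 and 11.7 CPM in PND and at 11.4, 6.87 and 9.57 CPM in CON, with no overlap between the groups but little room between the lowest PND mouse and the highest CON mouse. The log2 fold change was 0.42 (SE 0.20; limma p = 0.071, adjusted p = 0.77, exact permutation p = 0.1). Leaving out CON mouse 2 lowered it to 0.24. After TMM factors, which rescale libraries for differences in composition, its groups overlapped. The ratio of miR-467a-5p to miR-669c-5p lay between 3.23 and 4.70 in the 6 libraries and was 3.94 ± 0.735 in PND and 3.70 ± 0.462 in CON (SD, n = 3 each, exact two-sided permutation p = 0.7). Ratios between different microRNAs also carry the ligation preferences of the library kit.

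A further 4 entries had a mean of at least 1 CPM, all of them 5p arms. These were miR-467e-5p at 3.45 CPM, miR-669a-5p at 2.24 CPM, miR-467c-5p at 1.89 CPM and miR-467d-5p at 1.05 CPM. In each the groups overlapped. miR-467e-5p was at 3.95, 3.12 and 3.78 CPM in PND and 4.32, 2.09 and 3.42 CPM in CON (log2 fold change 0.14, SE 0.23), and it turned to -0.07 without CON mouse 2. miR-669a-5p, which together with miR-669q is known to restrain MyoD in heart progenitor cells, was at 2.52, 2.67 and 2.20 CPM in PND and 2.09, 1.48 and 2.49 CPM in CON (log2 fold change 0.21, SE 0.19, and 0.074 without CON mouse 2). It has 12 hairpin genes, against 1 for miR-669c-5p, whose mean was 10.9 CPM, so of these 2 entries the one with more copies was the lower. miR-467c-5p was widest in the controls, at 1.37, 1.01 and 3.04 CPM, around 1.90, 1.76 and 2.26 CPM in PND (log2 fold change 0.14, SE 0.27), and its sign turned with DESeq2 and without CON mouse 2. miR-467d-5p had a log2 fold change of -0.07 (SE 0.16). Limma p lay above 0.29 in all 4.

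**Figure D3:**
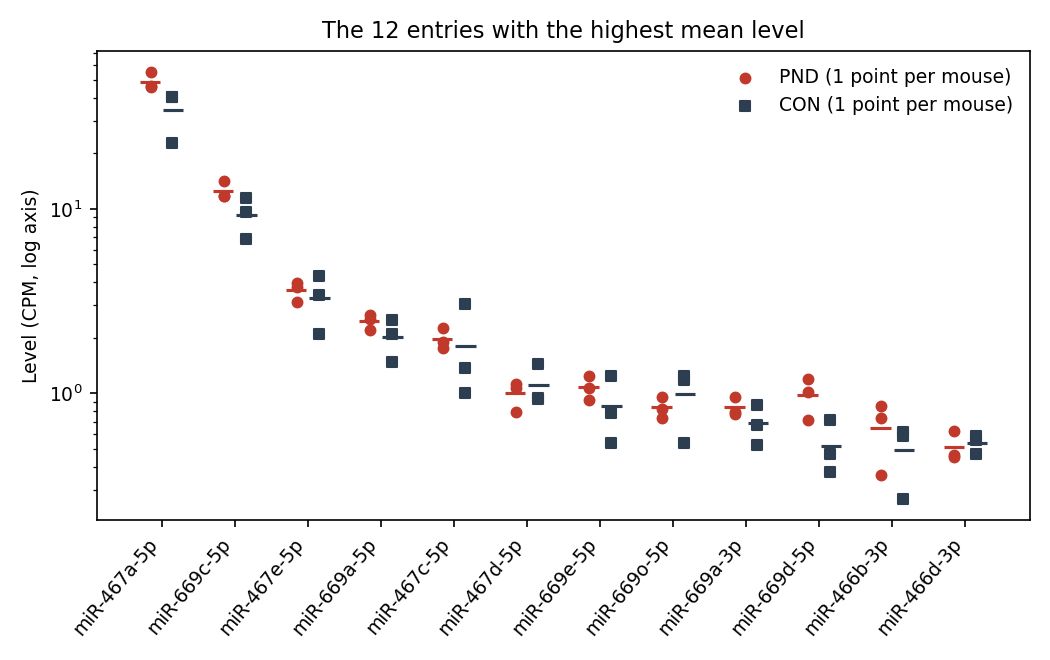
Level in CPM on a log axis of the 12 entries with the highest mean, 1 point per mouse and a line at each group mean. The points of the groups are separate for miR-467a-5p and miR-669c-5p and overlap for the rest, and the lowest CON point is far under the others for miR-467a-5p.

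The remaining entries of the 12 highest lay between 0.526 and 0.969 CPM, with log2 fold changes of 0.18 for miR-669e-5p, -0.09 for miR-669o-5p, 0.13 for miR-669a-3p, 0.14 for miR-466b-3p and -0.03 for miR-466d-3p. Without CON mouse 2 those of miR-669e-5p and miR-466b-3p were 0.054 and 0.026, and without CON mouse 1 that of miR-669a-3p was 0.057. The largest of this set was miR-669d-5p. It had 14, 21 and 18 reads in PND and 11, 7 and 6 reads in CON, which is 0.719, 1.19 and 1.02 CPM against 0.720, 0.471 and 0.373 CPM. PND mouse 1 and CON mouse 1 were level, so the groups overlapped (exact two-sided permutation p = 0.2). With limma the log2 fold change was 0.38 (SE 0.15), the unadjusted p 0.035 and the adjusted p 0.77. After TMM factors the groups did not overlap. Of 15 alternatives, p was under 0.05 in 7. It was 0.057 with DESeq2 size factors, 0.067 with the replicate block, 0.067 with edgeR and 0.26 with DESeq2. It lay between 0.082 and 0.11 without PND mouse 2, PND mouse 3, CON mouse 2 or CON mouse 3 (all limma but for edgeR and DESeq2).

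The other entry with a limma p under 0.05 was miR-466p-3p, with 5, 2 and 3 reads in PND and 1, 0 and 0 reads in CON (limma p = 0.016, adjusted p = 0.77, exact permutation p = 0.1). All but PND mouse 1 were at or under 3 reads. Its fitted log2 difference depended on the constant added or the tool, at 0.21 with 1 CPM added, 1.21 with 0.1 CPM added, 2.61 with edgeR and 2.81 with DESeq2, and is not read as a fold. The unadjusted p was above 0.05 with edgeR (0.064) and DESeq2 (0.16). Among the smallest p values was also that of miR-669o-3p, with 0, 2 and 2 reads in PND and 0 in every CON library. The miR-297 family was represented by miR-297a-3p (2, 4 and 3 reads in PND, 2, 2 and 1 in CON) and miR-297b-3p (2, 1 and 6 reads in PND, 1 in each CON library), too few reads to compare. Of names studied elsewhere, miR-466l-3p, which has been reported to stabilise interleukin 10 messenger RNA, had 3 reads in PND mouse 2 and 0 in the other 5 libraries, and miR-466h-5p, described as promoting apoptosis, had 2 reads in all.

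Across all 1189 entries, limma found p under 0.05 with the PND group higher in 4.04% and with the CON group higher in 1.09%. Of the 43 entries, 2 (4.65%) were in the first set and 0 in the second, a share near the background. The limits used by the study, p under 0.05 and a fold change above 2, were both passed by 0.0841% of all entries and by 0 of the 43. Here the fold was that of CPM + 1, whereas the study took it on its TPM values. The study's methods also name TMM normalization before that step and a p from edgeR, besides limma. The 0.0841% is therefore not directly comparable with its screen. The added 1 CPM made this limit hard to reach for the 37 entries with a mean under 1 CPM. With edgeR and DESeq2, which work on reads, 0 of the 43 passed both limits as well. An adjusted p under 0.05 was reached by 0.421% of all entries and by 0 of the 43, whose smallest adjusted p with limma was 0.77. At an unadjusted p under 0.05, edgeR and DESeq2 each called 1 of the 43 (2.33%), miR-467a-5p, higher in PND, with adjusted p values of 0.81 and 0.98. Over all entries these tools called 3.2% and 1.69% higher in PND and 1.01% and 0.676% higher in CON.

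The groups did not overlap, with PND higher, in 7.91% of all entries and in 3 of the 43 (6.98%): miR-467a-5p, miR-669c-5p and miR-466p-3p. With CON higher the shares were 2.02% and 0 of 43. Among entries with at least 10 reads in 3 libraries, the groups did not overlap with PND higher in 10.2% of 656 entries and in 2 of 12 of these families (16.7%), and with CON higher in 1.22% and 0 of 12. The log2 fold change was above 0 in 27 and below 0 in 16 of the 43, with a median of 0.05 and a median of 0.05 over all entries on the deposited scale. After TMM factors the medians were 0.049 and 0.0064, and with DESeq2 size factors 0.049 and -0.0042.

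**Figure D4:**
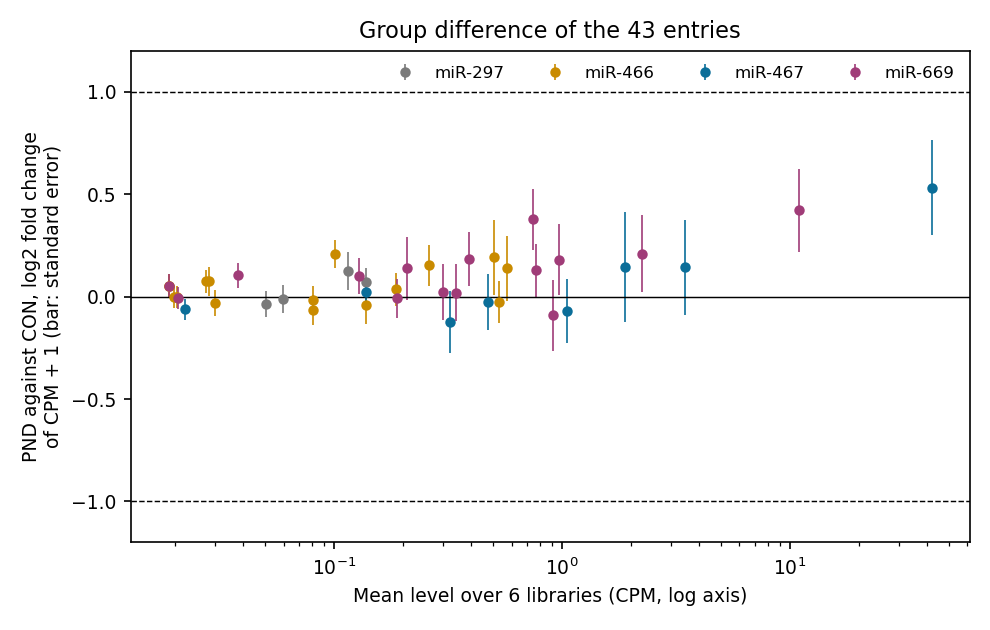
Log2 fold change of CPM + 1 between PND and CON (positive is higher in PND) against mean level in CPM for the 43 entries; bars are the standard error from limma and dashed lines mark a fold change of 2 in either direction. On this scale no entry reaches a dashed line, and the 2 most abundant entries have the highest values, 0.53 and 0.42. The order depends on the added 1 CPM, which draws low entries towards 0. With 0.1 CPM added, miR-466p-3p (1.21) and miR-669d-5p (0.81) were above miR-467a-5p (0.54).

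The whole data set leaned the same way, and the scale decided by how much. Of the 656 entries with at least 10 reads in 3 libraries, 75.0% had a log2 fold change above 0 on the deposited scale, with a median of 0.12, against 52.4% and a median of 0.02 after TMM factors and 50.2% and a median of 0.00 with DESeq2 size factors, a shift of -0.11. The 12 entries of these families had medians of 0.16, 0.11 and 0.10 on the 3 scales, and 10 of the 12 were above 0 on each. For all entries the limma calls at p under 0.05 were 48 higher and 13 lower in PND as deposited and 34 higher and 18 lower after TMM factors. With TMM factors the summed level of the 43 entries was 77.1 ± 4.06 CPM in PND and 61.7 ± 12.9 CPM in CON (SD, n = 3 each), a ratio of 1.25, and the groups still did not overlap.

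CON mouse 2 was low for much of the list. Its summed level of 40.3 CPM was 0.585 of the next lowest library. Of the 12 entries with at least 10 reads in 3 libraries, 9 were lowest in CON mouse 2 alone, while this held for 56.2% of the 656 entries of that depth. It also had the fewest reads on the listed entries (14849471, against 15275475 to 19471251). The share of the most abundant entry, miR-128-3p, was highest there, at 29.2% of these reads against 17.6% to 23.2%. The part of CON mouse 2 in the differences was tested only by leaving it out.

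Much of the difference in the sums lay in the 2 highest entries. Without miR-467a-5p and miR-669c-5p the other 41 entries summed to 18.9 ± 0.609 CPM in PND and 16.3 ± 4.86 CPM in CON (SD, n = 3 each), with overlapping groups and a ratio of 1.16. Without CON mouse 2 that ratio was 0.993.

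The arms were used unequally, and not in the same way in each family. The 5p arms held 94.2% of the reads of the 43 entries and the 3p arms 5.14%. In the miR-467 family 99.0% of the reads with a named arm were 5p (98% to 99.4% by library), and in miR-669 93.7% (91.1% to 95.4%). In the miR-466 family the 3p arms led, with 80.9% (70.7% to 87.9% by library), and in miR-297 with 83.8%, there over 37 reads only. The listed arms were unequal too, with 5 5p and 10 3p entries for miR-466 and 1 and 3 for miR-297. For miR-467 they were 5 and 3, and for miR-669 10 and 5. Within miR-466, miR-466c (27 reads on 5p, 19 on 3p) and miR-466n (8 and 3) had the 5p arm ahead, on few reads. Of the 12 names listed with both arms, the 5p arm had more reads in 8 and the 3p arm in 4. miR-467a had 4285 reads on 5p and 32 on 3p, and miR-467e had 351 and 2. miR-669a was less one-sided, with 229 and 78 reads, a 5p share of 74.6% (68.8% to 80.0% by library). miR-466b was turned round, with 2 reads on 5p and 58 on 3p. The names with the 3p arm ahead were miR-466b, miR-669f, miR-297b and miR-466p, the last 3 on 50, 18 and 13 reads. By library the order was not steady for these: 5p had more reads in PND mouse 2 and PND mouse 3 for miR-669f (55.6% and 60.0%), and in CON mouse 1 for miR-297b (66.7%). No name had both arms at a mean of 1 CPM or more.

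**Figure D5:**
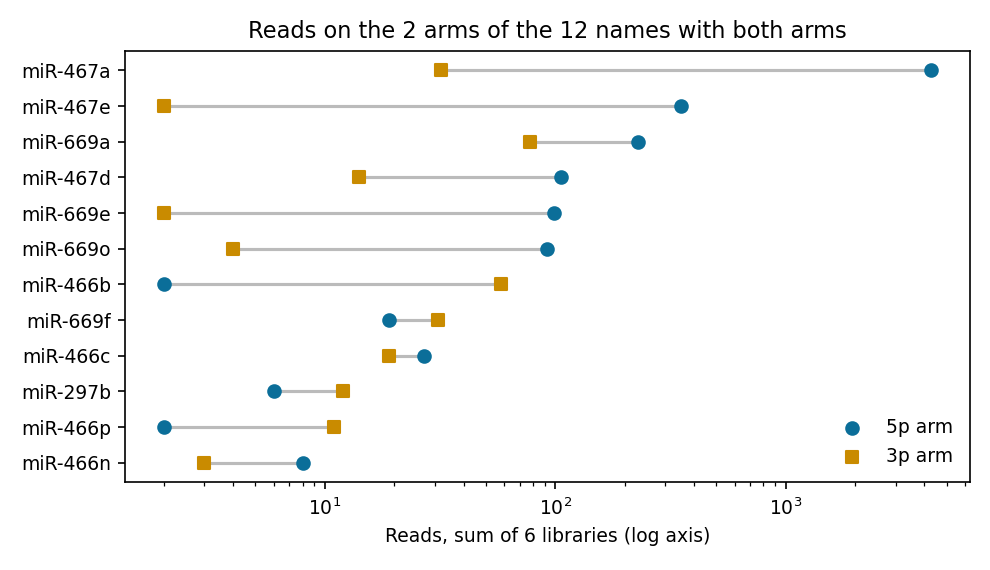
Reads on the 5p and the 3p arm, summed over 6 libraries on a log axis, for the 12 names listed with both arms. The 5p arm leads by far for miR-467a, with 4285 against 32 reads, and the 3p arm for miR-466b, with 58 against 2.

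Reads from near-identical copies could have been shared between names, and the counting rule for reads that match several of them was not given in the sources used here. The only entries of the 43 with the same values as each other in all 6 libraries were miR-466p-5p and miR-669e-3p, each with 2 reads in PND mouse 2 and 0 elsewhere, and 9 of the 43, all with few reads, had the same values as an entry outside the families. A read that fits several names may still have been given to one of them, so the split between neighbours such as miR-467a-5p at 41.8 CPM and miR-467b-5p at 0.473 CPM is uncertain.

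For comparison, 2 other lists were described. The Dlk1-Dio3 cluster, another large imprinted microRNA cluster and one active in brain, had 104 entries and summed to 92385 ± 4867 CPM in PND and 83136 ± 9036 CPM in CON (SD, n = 3 each), with overlapping groups and a ratio of 1.11. Its sum was 1130 to 1811 times that of the 43 entries, depending on the library. Of its entries 9 (8.65%) did not overlap with PND higher and 4 (3.85%) had a limma p under 0.05 with PND higher, near the shares of 7.91% and 4.04% over all entries, and its median log2 fold change was 0.16. The other list held the 3 entries outside the families whose RefSeq sequence contains UGUGUGUG, searched on the mature strand only (0.301% of 997). Its sum was 22.2 ± 0.641 CPM in PND and 22.0 ± 2.29 CPM in CON, nearly all of it miR-672-5p at 20.8 ± 1.16 and 20.6 ± 2.38 CPM (SD, n = 3 each). No entry outside the 4 families had its hairpin in Sfmbt2.

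The libraries held the microRNAs of the labelled tissue. The 4 neuronal markers (miR-124-3p, miR-9-5p, miR-128-3p and miR-138-5p) summed to 279250 to 314047 CPM in PND and 306166 to 370685 CPM in CON, and 0 of the markers on 6 cell type lists was at 0. Sums for the other lists overlapped between groups for 8 epithelial markers (145 to 182 CPM in PND, 67.0 to 1646 in CON, the 1646 being CON mouse 1), 4 of red blood cells (47.1 to 101 and 31.9 to 54.7), 3 of choroid plexus (777 to 805 and 588 to 936), 3 of oligodendrocytes (1575 to 1765 and 1384 to 1607) and 4 of microglia and leukocytes (299.1 to 331 and 279 to 328). Their part in the levels above was not tested.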

How the data were processed

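For each group 3 cortices were taken at random for sequencing according to the study's methods, so each library is 1 mouse. The deposited values are CPM, called TPM by the authors and made from reads of 18 to 40 nt; the submitters' notes name Bowtie 0.12.2, mm8 and mm9. Each value was a whole multiple of 1 read in 100% of cases (tolerance 0.02 reads), which gave 14849471 to 19471251 reads per library. The listed entries held nearly all of these reads, so the totals count reads on miRNA entries and do not give the sequencing depth. Limits on single values cover counting error only. Differences were tested in limma 3.58.1 (R 4.3.3, trend) on log2(CPM + 1), without covariates or filter, with Benjamini-Hochberg adjustment over all 1189 entries. On this scale changes of low entries are understated. Single values were also compared by exact two-sided permutation over the 20 splits of 6 mice. edgeR 4.0.16 and DESeq2 1.42.0 on the recovered reads, TMM and DESeq2 size factors, other pseudocounts and filters, a replicate block and each library left out were alternatives. The scripts were tested on simulated data. Named were the 12 highest entries, the 2 highest per family, those with p under 0.05 or the 5 smallest p, up to 10 whose groups did not overlap, and entries with identical values; miR-466l-3p, miR-466h-5p and miR-467b-5p were added after their values were seen. Members, lists and limits were chosen with earlier results of these data known.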

Additional observations from a re-analysis of the deposited data

How the results depend on the processing

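Of the 43 entries, 2 had a limma p under 0.05. This count was 1 with the filter of 10 reads in 3 libraries, 1 with edgeR, 1 with DESeq2, and 1 to 4 with 1 library left out (4 without PND mouse 1 or CON mouse 1, 1 without PND mouse 2 or CON mouse 2). The share of all entries with p under 0.05 and PND higher moved alike, at 6.14%, 6.31%, 1.60% and 1.93% in these 4 fits. The count was 3 with a pseudocount of 0.1, with TMM factors and without CON mouse 3. Without CON mouse 3, 2 of them were higher in PND and 1 was higher in CON. The latter was miR-467e-3p, with 2 reads over the 6 libraries. Both limits were passed by 0, and by 1, miR-466p-3p, with a pseudocount of 0.1. The smallest adjusted p of the 43 was 0.33 to 0.98 over all alternatives. The labels do not say whether replicate numbers pair the mice. Correlations of same-numbered deviations were -0.13, 0.12 and 0.51, and those of the other pairs -0.55 to 0.50, which does not settle it. With the replicate block the count was 2, miR-466p-3p and miR-467a-5p. The log2 fold change of miR-467a-5p was 0.27 to 0.67 over all alternatives and above 0 in each, and that of miR-669c-5p 0.24 to 0.57. The log2 ratio of the miR-467 sum was 0.43, and 0.041 without miR-467a-5p.

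With 1 library left out, a choice made after seeing the data, 3 to 9 entries did not overlap with PND higher (9 without PND mouse 1, 3 without CON mouse 2) and 0 to 4 with CON higher (4 without CON mouse 2). Leaving out a library can only keep or raise such counts, and the shares of all entries were 20.9% without PND mouse 1, and 10.1% with PND higher and 6.14% with CON higher without CON mouse 2. The sign turned with DESeq2 for miR-467c-5p (-0.013). With 1 library left out it turned for miR-467c-5p (-0.063 without CON mouse 2, to 0.44), miR-467e-5p (-0.074 without CON mouse 2, to 0.32), miR-467d-5p (-0.13 to 0.041, above 0 without PND mouse 2 or CON mouse 1), miR-466d-3p (-0.079 to 0.0022, above 0 without PND mouse 3) and miR-669o-5p (-0.27 to 0.0055, above 0 without CON mouse 3). The cause was not tested. With 3 mice a group and a floor of 3 reads, 16 of the 43 entries carry no usable comparison.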
